A study of Mus musculus with 12 samples.

Results

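The genes described here make cholesterol or regulate sterols in whole mouse lung. They are 28 listed genes, of which 26 had a probe set with a matching gene symbol among the 24704 genes measured. The list was chosen with earlier results of these data known. Its genes were matched by symbol to the array's platform annotation, in which Soat1 and Nr1h2 found no match. The 26 comprise 17 enzymes of the route through mevalonate to cholesterol, 4 genes that control the SREBP2 transcription factor, the sterol carrier Stard4, the nuclear receptor gene Nr1h3 and 3 targets of its receptor family. Lungs of mice with and without endothelial Nfat5, after normoxia or 21 days of hypoxia, were profiled on 12 Affymetrix arrays, 3 per group.

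The control mice were Nfat5fl/fl, which carry floxed Nfat5 alleles, and received only the solvent miglyol. The Nfat5(EC)-/- mice lost Nfat5 in endothelial cells after 1 mg of tamoxifen daily for 5 days, so effects of deletion and of tamoxifen cannot be told apart. All were adult males and females aged 10 to 12 weeks that recovered for 2 to 3 weeks before use, and their lungs were washed free of blood with cold Ringer solution. The sources used here do not give the Cre driver, whether controls also carry it, or the oxygen level. The design text says that preparations with other tissue or with a poor expression response to hypoxia were left out by the authors, so the hypoxia comparisons rest on animals chosen in part by their response. Values are log2 expression after RMA, and a difference of 1 is a 2-fold difference.

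Cells build cholesterol from acetyl-CoA through mevalonate, isoprenoid diphosphates, squalene and lanosterol. The transcription factor SREBP2 switches most of these enzymes on together: when membrane sterol is low, SCAP carries it from the endoplasmic reticulum to the Golgi, where it is cut free, and when sterol is plentiful INSIG proteins hold SCAP back. LXR receptors work the other way and respond to oxysterols by raising exporters such as ABCA1 and ABCG1. In lung, alveolar type 2 cells package cholesterol into surfactant, and alveolar macrophages clear it with the help of ABCG1.

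Promoter sequence is shown for 6 genes: the 4 enzymes whose call in control lungs held in 20 of 21 other settings (Cyp51, Lss, Mvk and Dhcr7), Hmgcs1, whose level hardly moved, and Srebf2, which encodes SREBP2. Each run is the 250 bases before an annotated start site from RefSeq on GRCm38.p6, read 5′ to 3′ on the gene's strand. Where a gene had several windows, the first that held CCAAT was printed. Of the 6 this concerns Dhcr7, with 3 windows, whose 2 matches both lie in the printed run. Capitals mark CCAAT or its reverse complement ATTGG, the core bound by NF-Y, a known partner of SREBP2, and matches to the sterol element.
Cyp51, chr5:4104698-4104947, minus strand: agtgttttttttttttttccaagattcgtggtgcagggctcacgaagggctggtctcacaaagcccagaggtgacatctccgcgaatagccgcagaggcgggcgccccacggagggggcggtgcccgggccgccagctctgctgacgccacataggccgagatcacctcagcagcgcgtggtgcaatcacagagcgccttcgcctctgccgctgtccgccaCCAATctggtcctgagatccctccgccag
Lss, chr10:76531355-76531604, plus strand: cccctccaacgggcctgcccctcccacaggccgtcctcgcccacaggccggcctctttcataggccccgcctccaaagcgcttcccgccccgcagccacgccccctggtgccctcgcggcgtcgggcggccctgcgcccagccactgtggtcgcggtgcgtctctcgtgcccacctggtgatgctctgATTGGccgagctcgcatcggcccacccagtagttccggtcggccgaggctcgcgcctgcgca
Mvk, chr5:114444019-114444268, plus strand: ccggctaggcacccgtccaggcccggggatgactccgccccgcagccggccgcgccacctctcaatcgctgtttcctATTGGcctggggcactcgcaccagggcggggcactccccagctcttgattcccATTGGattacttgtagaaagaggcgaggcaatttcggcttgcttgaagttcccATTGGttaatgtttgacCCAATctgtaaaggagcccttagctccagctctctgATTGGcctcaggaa
Dhcr7, chr7:143829964-143830213, plus strand: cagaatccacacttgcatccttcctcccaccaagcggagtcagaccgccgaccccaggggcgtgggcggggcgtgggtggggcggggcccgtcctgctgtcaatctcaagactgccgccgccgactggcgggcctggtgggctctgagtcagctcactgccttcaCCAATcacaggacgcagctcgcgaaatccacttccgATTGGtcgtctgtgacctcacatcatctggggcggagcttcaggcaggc
Hmgcs1, chr13:119690101-119690350, plus strand: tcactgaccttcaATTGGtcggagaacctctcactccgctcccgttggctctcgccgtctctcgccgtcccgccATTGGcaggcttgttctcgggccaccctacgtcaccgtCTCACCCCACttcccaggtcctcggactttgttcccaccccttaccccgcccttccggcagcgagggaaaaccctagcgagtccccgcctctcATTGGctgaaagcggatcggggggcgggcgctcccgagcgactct
Srebf2, chr15:82147019-82147268, plus strand: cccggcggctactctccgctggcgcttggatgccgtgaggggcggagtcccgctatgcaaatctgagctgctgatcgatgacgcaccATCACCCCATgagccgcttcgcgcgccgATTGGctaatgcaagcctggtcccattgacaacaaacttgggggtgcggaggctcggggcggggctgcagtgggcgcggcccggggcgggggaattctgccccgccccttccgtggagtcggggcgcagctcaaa
The table of 300-base windows (250 before to 50 after a start site) held 23 of the 28 listed genes and 14 of the 17 enzymes. CCAAT, searched on both strands, was present in at least 1 window of all 14 enzymes, against 41.1% of the 27025 genes in the table. Counted by window, it was in 14 of 17 enzyme windows, or 82.4%, against 37.4% of 32851 windows. Of the 9 other listed genes with a window, 5 held it. Mvk had 5 matches in the printed run, Hmgcs1 had 3, Dhcr7 had 2, and Cyp51, Lss and Srebf2 had 1 each. The sterol element was searched on both strands as TCACNCCAC, which was in 1 of the 14 enzymes, Hmgcs1, or 7.14%, against 1.44% of all genes. By window this was 5.88% of enzyme windows, against 1.24% of all windows. The classical sterol regulatory element, searched on both strands with at most 1 mismatch, overlapped that match in Hmgcs1 and was also found in Srebf2 as ATCACCCCAT, 163 bases before its start, and in Nsdhl as ATCACCCAAC. It was in 14.3% of the 14 enzymes, against 2.22% of all genes, and in 11.8% of enzyme windows, against 1.95% of all windows. These are matches of letters in short windows, with no test, and elements that diverge by more than 1 mismatch would be missed.

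Nfat5 itself was at 9.01, 9.39 and 8.92 in the normoxic controls (log2) and at 8.59, 8.80 and 8.62 in the normoxic knockouts, with no overlap and a difference of -0.44 ± 0.15 (limma standard error; adjusted p = 0.62). In hypoxia it was 8.61, 8.16 and 8.51 in controls and 8.17, 8.46 and 8.40 in knockouts, which overlapped. RNA from cells that keep Nfat5 is measured with it, and the sources used here do not say whether the probes cover the deleted exons, so this is a weak check of the labels. Endothelial markers were plain in every array, with Cdh5, an endothelial cadherin, between 11.94 and 12.45, and the type 2 cell gene Sftpc was between 13.36 and 13.58, near the top of the scale. Of the listed thymus markers, Rag1 was low, between 3.29 and 3.62, while Cd8b1 was the highest, between 5.29 and 6.40.

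In control lungs, 13 of the 26 genes were higher after 21 days of hypoxia than in normoxia and 0 were lower. Of all 24704 genes, 5.36% were called higher and 6.14% lower in that comparison (limma, Benjamini-Hochberg adjusted p under 0.05), and 11.5% in either direction. The 13 were the enzymes Mvk, Mvd, Fdps, Sqle, Lss, Cyp51, Tm7sf2, Nsdhl, Hsd17b7 and Dhcr7, the SREBP escort Scap, the sterol carrier Stard4 and the sterol exporter Abcg1. Thus 10 of 17 enzymes passed, at steps from mevalonate kinase to the last reductase, against 3 of the 9 other genes. The median log2 change was 0.40 over the 26 genes and 0.46 over the enzymes, beside 0.011 over all genes. At an unadjusted p under 0.05 there were 17 of 26, against 27.4% of all genes, and 22 of the 26 changes lay above 0, against 52.3%. The 3 hypoxic arrays lay above the 3 normoxic arrays for 16 of the 26, against 14% of all genes, and below them for 0, against 13.7%. In lung tissue, more RNA per cell and more cells of a type that makes the RNA cannot be told apart.

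**Figure D1:**
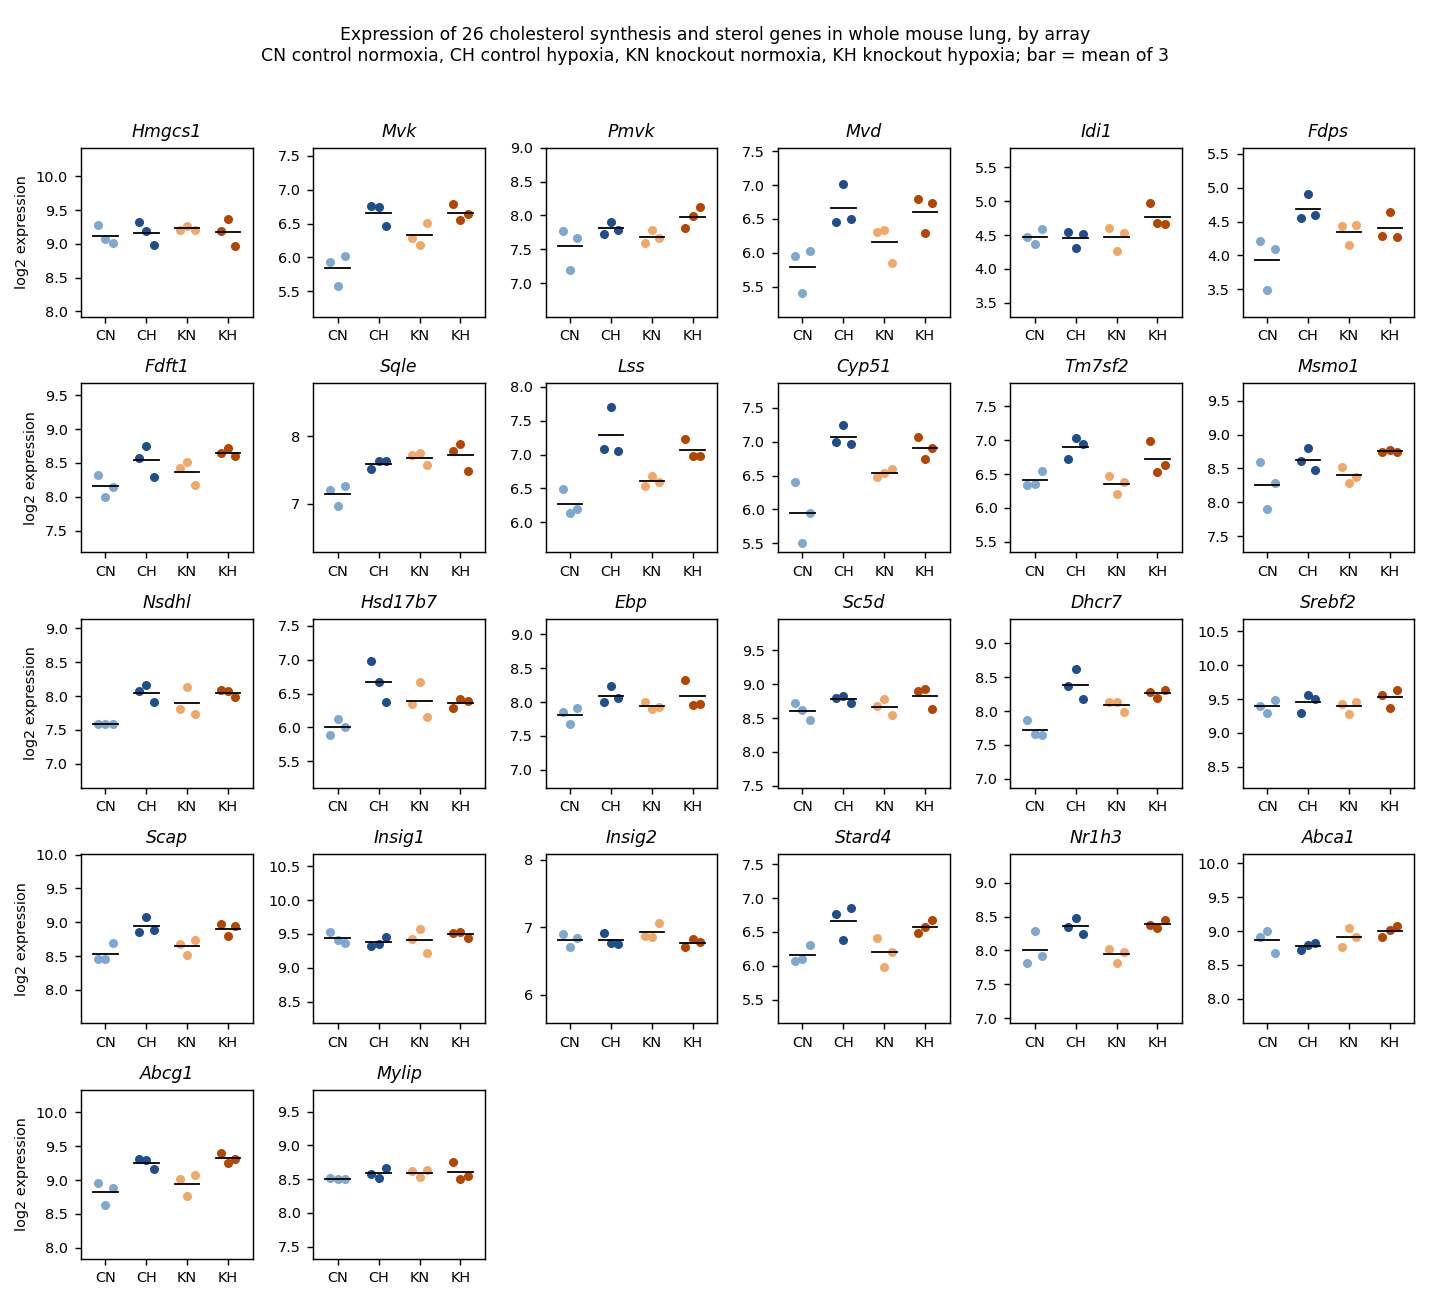
Log2 expression of each of the 26 genes (vertical axis, 2.5 log2 units in every panel) in the 12 arrays, by group; points are arrays and bars are means of 3. Cyp51, Lss, Mvk and Dhcr7 have hypoxic controls above every normoxic control, while the groups of Hmgcs1, Srebf2 and Insig1 overlap.

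Among the enzymes of the mevalonate stage, Mvk, Mvd and Fdps rose in control hypoxia and Hmgcs1, Pmvk and Idi1 did not pass. Mvk, the kinase that phosphorylates mevalonate, was at 5.93, 5.58 and 6.02 in normoxic controls and at 6.76, 6.75 and 6.46 in hypoxic controls (log2). The hypoxic arrays all lay above the normoxic ones, and the change was 0.81 ± 0.13 or 1.76-fold (adjusted p = 0.0065). In knockout lungs Mvk was at 6.29, 6.19 and 6.51 in normoxia and 6.79, 6.56 and 6.64 in hypoxia, again without overlap, but the change of 0.34 ± 0.13 did not pass (adjusted p = 0.31). All 3 normoxic knockout arrays sat above all 3 normoxic control arrays.

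Mvd, which decarboxylates mevalonate diphosphate to the isoprene unit, went from 5.95, 5.40 and 6.03 to 6.46, 7.01 and 6.50 in controls. The hypoxic arrays did not overlap with the normoxic ones, and the rise was 0.86 ± 0.21 (adjusted p = 0.026). In knockouts it was 6.30, 6.34 and 5.85 in normoxia and 6.80, 6.29 and 6.73 in hypoxia, and these overlapped. Fdps, which joins isoprene units into farnesyl diphosphate, rose from 4.21, 3.49 and 4.10 to 4.56, 4.91 and 4.60 in controls (0.76 ± 0.18, adjusted p = 0.023), and was 4.44, 4.16 and 4.45 in normoxic and 4.29, 4.64 and 4.27 in hypoxic knockouts. Its values lie near the array median of 4.55, in the dim part of the scale, as do those of the isomerase Idi1, which stayed between 4.27 and 4.98 over all arrays.

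Hmgcs1, the synthase that makes the pathway's committed precursor, was flat. It was at 9.28, 9.07 and 9.01 in normoxic and 9.32, 9.19 and 8.99 in hypoxic controls, a change of 0.05 ± 0.12 with a 95% interval from -0.21 to 0.31 (adjusted p = 0.84). Its promoter is the only printed one that holds TCACNCCAC. Pmvk, the second kinase of the stage, changed by 0.26 ± 0.14 in controls and 0.30 ± 0.14 in knockouts, and neither passed (adjusted p = 0.26 and 0.41).

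At the squalene stage, Sqle and Lss rose in control hypoxia, and Fdft1, the synthase that makes squalene, did not pass (0.39 ± 0.13, adjusted p = 0.075). Sqle, the epoxidase that puts the first oxygen on squalene, went from 7.21, 6.97 and 7.26 to 7.51, 7.64 and 7.63 (0.45 ± 0.12, adjusted p = 0.031). In knockouts it was already 7.72, 7.76 and 7.57 in normoxia and was 7.79, 7.89 and 7.49 in hypoxia, a change of 0.04 ± 0.12. Every knockout normoxia array of Sqle lay above every control normoxia array. Lss, the cyclase that folds the squalene chain into lanosterol, went from 6.49, 6.14 and 6.20 to 7.09, 7.71 and 7.06 in controls. This was a 2.01-fold rise (1.01 ± 0.16, adjusted p = 0.0061). In knockouts Lss was 6.53, 6.68 and 6.60 in normoxia and 7.23, 6.98 and 6.98 in hypoxia, without overlap, a change of 0.46 ± 0.16 (adjusted p = 0.25).

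From lanosterol on, 5 of 8 enzymes rose in control hypoxia, and all 8 lay above 0. Cyp51, the demethylase that starts this stage, had the largest change among the 26 genes, from 6.40, 5.51 and 5.94 to 6.99, 7.25 and 6.97 (1.12 ± 0.18, 2.17-fold, adjusted p = 0.0061). In knockouts it was 6.48, 6.54 and 6.59 in normoxia and 7.07, 6.75 and 6.91 in hypoxia, which did not overlap (0.38 ± 0.18, adjusted p = 0.42). The hypoxic levels of the genotypes overlapped, and the normoxic ones did not.

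Dhcr7, the reductase of the last step to cholesterol, went from 7.87, 7.66 and 7.64 to 8.37, 8.62 and 8.18 in controls (0.67 ± 0.11, adjusted p = 0.0068). In knockouts it was 8.14, 8.14 and 7.99 in normoxia and 8.28, 8.20 and 8.31 in hypoxia (0.18 ± 0.11, adjusted p = 0.58). The normoxic knockout arrays again lay above all normoxic controls. Hsd17b7, the ketone reductase of the demethylation complex, rose in controls from between 5.88 and 6.13 to 6.98, 6.67 and 6.38 (0.67 ± 0.16, adjusted p = 0.021) and was -0.02 ± 0.16 in knockouts. Nsdhl, a dehydrogenase of the same complex, went from 7.59, 7.59 and 7.58 to 8.08, 8.16 and 7.91 (0.46 ± 0.11, adjusted p = 0.022).

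Tm7sf2, which reduces the C14 double bond left by Cyp51, rose by 0.49 ± 0.13 in controls (adjusted p = 0.034) and was 0.36 ± 0.13 in knockouts (adjusted p = 0.26). The methyl oxidase Msmo1 was 0.37 ± 0.15 in controls and 0.36 ± 0.15 in knockouts, and neither passed (adjusted p = 0.13 and 0.32). Its knockout arrays were 8.52, 8.29 and 8.38 in normoxia and 8.75, 8.78 and 8.75 in hypoxia, without overlap. The isomerase Ebp (0.29 ± 0.11, adjusted p = 0.12) and the desaturase Sc5d (0.18 ± 0.10, adjusted p = 0.29) did not pass in controls, although neither overlapped between normoxia and hypoxia.

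**Figure D2:**
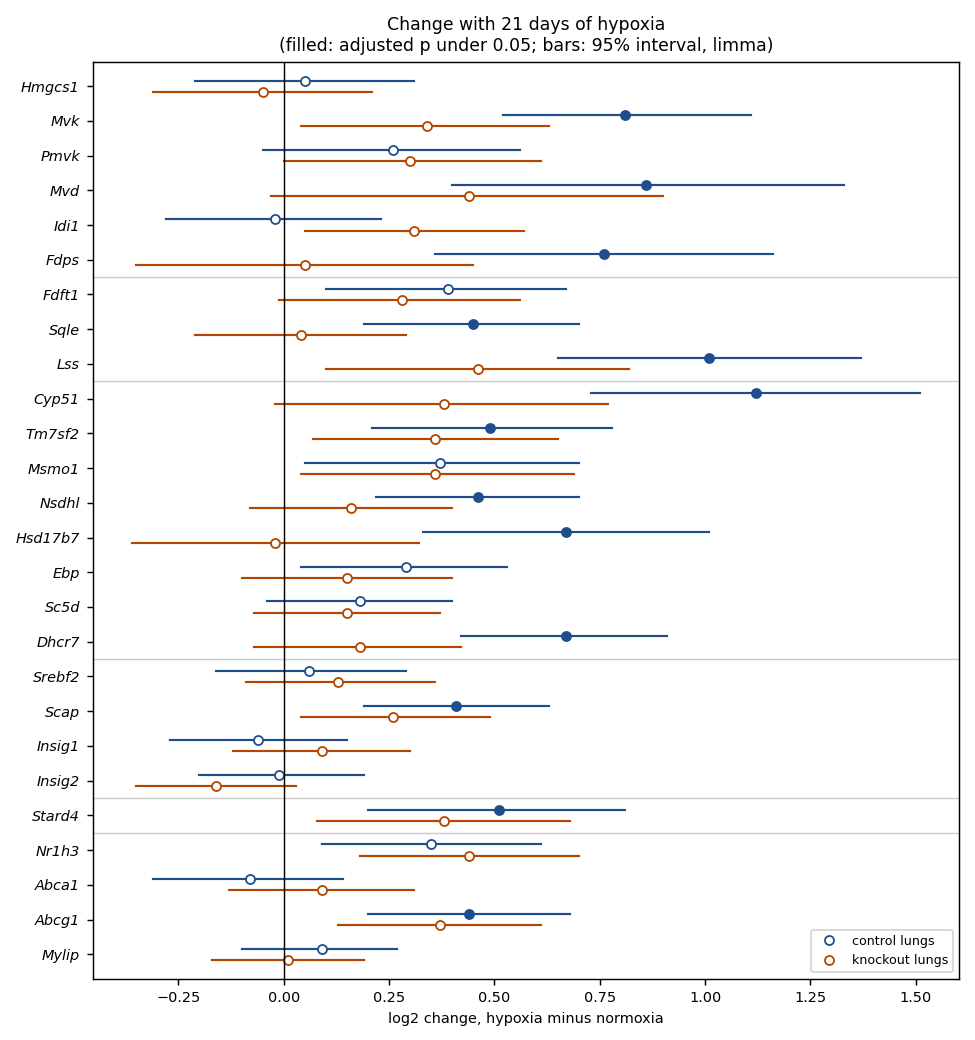
Log2 change with hypoxia (horizontal axis) for each of the 26 genes, in control and in knockout lungs, grouped by role; points are limma estimates, bars 95% intervals, and filled points passed an adjusted p under 0.05. All 13 filled points are controls, and 23 of the 26 knockout points lie above 0.

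Among the genes that control SREBP2, Scap rose in control hypoxia and the other 3 did not pass. Scap, the escort and sterol sensor, went from 8.45, 8.45 and 8.70 to 8.86, 9.08 and 8.89 in controls (0.41 ± 0.10, adjusted p = 0.026), and from 8.68, 8.52 and 8.73 to 8.98, 8.79 and 8.95 in knockouts (0.26 ± 0.10, adjusted p = 0.29), each time without overlap. Srebf2 was 9.40, 9.29 and 9.48 in normoxic and 9.29, 9.56 and 9.50 in hypoxic controls, a change of 0.06 ± 0.10 whose 95% interval ran from -0.16 to 0.29. Insig1, an anchor of SCAP that SREBP itself induces, was 9.53, 9.41 and 9.37 in normoxic and 9.32, 9.35 and 9.46 in hypoxic controls (-0.06 ± 0.10, interval from -0.27 to 0.15). Its relative Insig2 was -0.01 ± 0.09 in controls. In knockouts Insig2 was 6.87, 6.85 and 7.06 in normoxia and 6.70, 6.82 and 6.78 in hypoxia, the only gene of the 26 whose hypoxic knockout arrays all lay below the normoxic ones (-0.16 ± 0.09, adjusted p = 0.51).

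Stard4, a soluble carrier that moves sterol between membranes, rose in controls from 6.07, 6.10 and 6.31 to 6.76, 6.38 and 6.85 (0.51 ± 0.14, adjusted p = 0.037) and was 0.38 ± 0.14 in knockouts (adjusted p = 0.25). In knockouts it was 6.41, 5.98 and 6.20 in normoxia and 6.49, 6.57 and 6.68 in hypoxia, so neither genotype overlapped.

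Of the LXR side, Abcg1 passed in controls. This exporter passes cholesterol to lipoprotein particles, and it went from 8.96, 8.63 and 8.88 to 9.31, 9.30 and 9.17 in controls (0.44 ± 0.11, adjusted p = 0.027) and from 9.01, 8.76 and 9.07 to 9.40, 9.25 and 9.31 in knockouts (0.37 ± 0.11, adjusted p = 0.15). Nr1h3, which encodes LXR-alpha, was 7.82, 8.29 and 7.92 in normoxic and 8.35, 8.48 and 8.24 in hypoxic controls, which overlapped (0.35 ± 0.12, adjusted p = 0.079). In knockouts it went from 8.02, 7.82 and 7.98 to 8.37, 8.33 and 8.45 without overlap (0.44 ± 0.12, adjusted p = 0.12), the smallest adjusted p of the 26 in that genotype.

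Abca1, the other main sterol exporter, was -0.08 ± 0.10 in controls and 0.09 ± 0.10 in knockouts. Mylip, the LXR-induced ligase that marks lipoprotein receptors for destruction, was 0.09 ± 0.08 and 0.01 ± 0.08. Neither passed in any comparison, and the 95% interval of Abca1 in controls ran from -0.31 to 0.14.

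In knockout lungs 0 of the 26 genes passed limma's test for hypoxia, where 1.14% of all genes did, 0.64% higher and 0.502% lower. At an unadjusted p under 0.05 there were 9 of 26, or 34.6%, against 12.6% of all genes. The median log2 change was 0.22, beside 0.003 over all genes, and 23 of the 26 lay above 0, against 50.9%. The hypoxic arrays lay above all normoxic arrays for 13 of the 26, against 10.9% of all genes, and below them for 1, against 8.97%, so 14 did not overlap, against 19.8%. Averaged over both genotypes, 13 genes rose and 0 fell, where 7.27% of all genes were called higher and 7.4% lower. Of the 26 changes 24 lay above 0, against 52% of all genes. Of the 13, 10 were also among the calls in controls, and Fdft1 (0.33 ± 0.09, adjusted p = 0.032), Msmo1 (0.37 ± 0.10, adjusted p = 0.036) and Nr1h3 (0.40 ± 0.08, adjusted p = 0.011) took the place of Fdps, Sqle and Hsd17b7. The averaged calls of Fdft1 and Msmo1 were each kept in only 7 of 20 other settings and in 4 of 12 fits that left out 1 array, and that of Nr1h3 in 19 of 20. Without control normoxia 2, for example, Fdft1 was 0.29 and Msmo1 0.28, and neither passed.

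The difference between genotypes in the hypoxia change was tested directly, and 0 of the 26 interactions passed (limma, smallest adjusted p = 0.57), as did 0.00405% of all genes. At an unadjusted p under 0.05 there were 7 of 26, or 26.9%, against 8.25% of all genes. Of the 26 interactions 6 lay above 0, against 49.7% of all genes. The 7 were Mvk, Fdps, Sqle, Lss, Cyp51, Hsd17b7 and Dhcr7, all with a smaller change in knockouts, by 0.41 for Sqle up to 0.74 for Cyp51. The interaction of Cyp51 was -0.74 ± 0.25 (unadjusted p = 0.013, adjusted p = 0.57) and that of Hsd17b7 was -0.69 ± 0.22 (adjusted p = 0.57). The 13 calls in controls against 0 in knockouts are therefore not shown to differ between genotypes.

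Knockout minus control gave 0 calls among the 26 genes in normoxia, where 0.00405% of all genes passed, and 0 in hypoxia, where 0% did (limma). In normoxia 7 of the 26 had an unadjusted p under 0.05, against 7.26% of all genes, and all 7 were enzymes that were higher in the knockouts. Sqle had the smallest p (0.54 ± 0.12, adjusted p = 0.48), followed by Mvk (0.49 ± 0.13), Dhcr7 (0.37 ± 0.11) and Cyp51 (0.59 ± 0.18). The knockout arrays lay above all controls for 8 of the 26, against 5.46% of all genes, and below them for 0, against 6.22%. The median difference was 0.12 over the 26 genes and 0.30 over the enzymes, beside -0.004 over all genes, and 22 of the 26 lay above 0, against 48.8%. In hypoxia the medians were 0.01 and 0.00, and 1 gene, Idi1, had an unadjusted p under 0.05 (0.32 ± 0.12, adjusted p = 0.95), against 5.1% of all genes. There 15 of the 26 lay above 0, against 49.5%. The knockout arrays lay above all controls for 2 genes, Idi1 and Abca1, and below them for 0, so 2 did not overlap, against 9.74% of all genes (4.55% higher, 5.19% lower). The normoxic controls serve in the normoxic genotype comparison, the hypoxia comparison of controls and the interaction. A low value in them raises the first 2 and lowers the interaction, so these are not separate results.

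**Figure D3:**
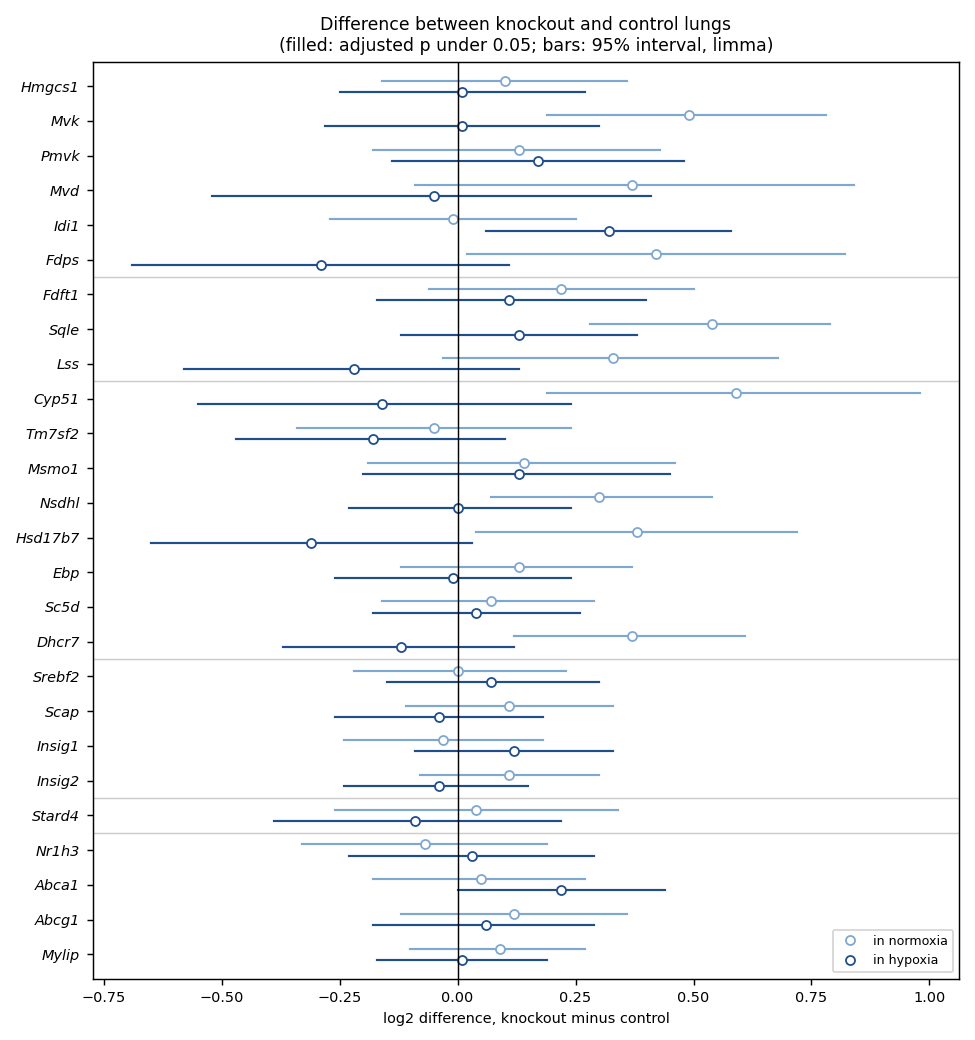
Log2 difference between knockout and control lungs (horizontal axis) for each of the 26 genes, in normoxia and in hypoxia; points are limma estimates, bars 95% intervals, and open points did not pass an adjusted p under 0.05. No point is filled, and in normoxia 22 of the 26 points lie above 0, while in hypoxia 15 do.

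The mean of the 17 enzymes shows the same pattern by array. It was 6.99, 6.69 and 6.91 in normoxic controls, 7.36, 7.51 and 7.27 in hypoxic controls, 7.15, 7.15 and 7.07 in normoxic knockouts and 7.42, 7.34 and 7.30 in hypoxic knockouts (log2). The normoxic knockouts lay between the normoxic controls and all hypoxic arrays. Control normoxia 2 was the lowest array, and control hypoxia 2 the highest.

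The count in controls rested on single arrays. It was 7 without control normoxia 1, when 4.39% of all genes were called, 6 without control normoxia 2 (3.96%) and 5 without control hypoxia 2 (3.27%). Fitting the 6 control arrays alone gave 5, when 4.45% of all genes were called. The calls of Mvk, Lss, Cyp51 and Dhcr7 held with each of the 12 arrays left out in turn. The 9 other calls were each lost in at least 2 of these 12 settings.

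Markers of other cells and of RNA state moved with these genes. Of 10 listed alveolar macrophage genes 8 were measured, and 4 rose in control hypoxia, 1 in knockout hypoxia and 5 over both genotypes, where 5.36%, 0.64% and 7.27% of all genes were called higher. Their mean ran from 7.45 to 7.85 in normoxic controls, 8.08 to 8.27 in hypoxic controls, 7.86 to 7.99 in normoxic knockouts and 8.27 to 8.34 in hypoxic knockouts, lowest in control normoxia 2 like the enzymes. The mean of 10 type 2 cell genes was 11.31 to 11.45 and 11.35 to 11.46 in the normoxic groups against 11.47 to 11.59 and 11.53 to 11.57 in the hypoxic ones, and 2 of the 10 rose in controls, against the same 5.36%. Of 10 genes of other macrophages and monocytes 4 rose and 1 fell in control hypoxia, against 5.36% and 6.14% of all genes. Their means were 7.26 to 7.34 in normoxia and 7.28 to 7.69 in hypoxia. Of 10 fibroblast genes 5 rose and 0 fell, against the same shares, with means of 8.75 to 8.89 and 9.25 to 9.28. In knockout hypoxia 1 gene of each of these 2 lists rose and 0 fell, against 0.64% and 0.502% of all genes. Of 10 endothelial genes 1 rose and 2 fell in control hypoxia and likewise in knockout hypoxia, where 5.36% and 0.64% of all genes rose and 6.14% and 0.502% fell. For knockout against control in hypoxia all 10 lay below 0, with a median of -0.13, and 0 passed, as did 0% of all genes. Of the 10, 1 had an unadjusted p under 0.05, against 5.1% of all genes. The knockout arrays lay below all controls for 4, against 5.19%. The part of these cells in the result was not tested.

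Nuclear noncoding RNAs moved the opposite way. The mean of 10 such RNAs was 5.76 to 6.22 in normoxic controls, 5.13 to 5.40 in hypoxic controls, 5.55 to 5.98 in normoxic knockouts and 5.26 to 5.66 in hypoxic knockouts. Of the 10, 5 fell in control hypoxia, where 6.14% of all genes were called lower. With this mean as a covariate 0 of the 26 genes passed for hypoxia in controls, and 2 of all 24704 genes did. The estimates, none of which passed, were then 0.80 for Cyp51, 0.76 for Lss, 0.62 for Dhcr7, 0.60 for Nsdhl and 1.06 for Hsd17b7. They were 0.39 for Mvk, 0.37 for Mvd, 0.36 for Fdps, 0.31 for Sqle and 0.39 for Stard4, and 0.05 for Scap, 0.12 for Abcg1 and -0.04 for Tm7sf2. The covariate differs between the groups, so the fit cannot separate it from hypoxia.

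Adipose and heart tissue and sex also differed between arrays. The brown fat gene Ucp1 was 7.66 in control hypoxia 1 and 9.31 in knockout normoxia 2, and at most 4.28 elsewhere. Without both arrays 12 of the 26 genes still passed in controls, when 11.5% of all genes did. The mean of 5 genes of heart atrium reached 9.60 in knockout normoxia 2 and 8.25 in number 4 of that group, and at most 7.73 elsewhere, so 2 of the 3 normoxic knockout arrays stood apart in it. Without knockout normoxia 2 the median normoxic difference of the 26 genes between genotypes was 0.15, and the part of this tissue in it was not tested. The mean of 3 Y-linked genes was 3.04, 6.69 and 6.18 in normoxic and 3.25, 3.08 and 5.34 in hypoxic controls. In knockouts it was 2.98, 6.66 and 6.12 in normoxia and 5.36, 2.99 and 3.26 in hypoxia. More arrays were high in normoxia than in hypoxia in both genotypes, so sex and oxygen are partly confounded. With this mean as a covariate 7 of the 26 genes passed for hypoxia in controls, when 7.26% of all genes did. The clock difference Dbp minus Arntl was 0.42 to 3.72 in normoxic controls and -0.10 to 1.81 in normoxic knockouts. It was 5.64 to 6.21 in hypoxic controls and 5.96 to 6.21 in hypoxic knockouts, so time of day and oxygen cannot be told apart. The normoxic genotypes overlapped in it but reached different heights, and its part in their difference was not tested.

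**Figure D4:**
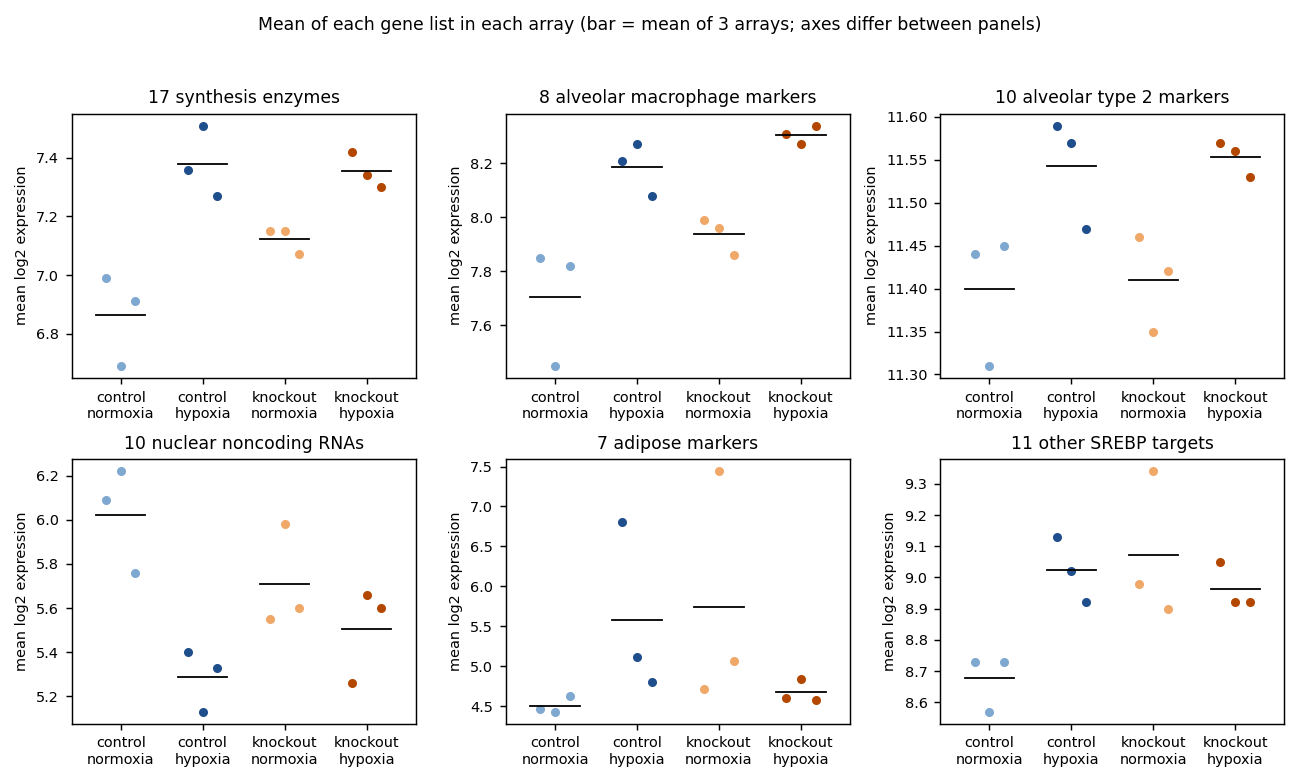
Mean log2 expression (vertical axis, ranges differ between panels) of 6 gene lists in each of the 12 arrays, by group; bars are means of 3 arrays. The enzyme mean and the alveolar macrophage mean are both lowest in the normoxic controls and higher in hypoxia, the nuclear RNA mean is highest in the normoxic controls, and the adipose mean stands out in control hypoxia 1 and knockout normoxia 2.

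Other genes of sterol metabolism were taken from lists chosen for their role, with earlier results of these data known. Of 11 measured genes of acetyl-CoA supply and other SREBP targets, 4 rose and 0 fell in control hypoxia. That is 36.4% called, against 11.5% of all genes. All 11 lay above 0, the smallest at 0.00 when rounded, with a median of 0.33. Elovl6, a gene of this list, was 7.58 in control hypoxia 1, the array with high Ucp1, and 5.77 and 5.37 in the other hypoxic controls. In normoxic controls Elovl6 was 6.29, 5.83 and 5.19. The part of adipose tissue in this list was not tested. Tmem97, a sterol-responsive membrane protein, rose by 0.78 ± 0.18 (adjusted p = 0.019), and the fatty acid desaturases Fads2 by 0.52 ± 0.12 (adjusted p = 0.018) and Fads1 by 0.29 ± 0.08 (adjusted p = 0.040). The fourth was Srebf1, which encodes the lipogenic relative of SREBP2 and is named because its value was seen (0.52 ± 0.13, adjusted p = 0.026), and it was 0.02 ± 0.13 in knockouts. In knockouts 0 of the 11 passed, against 1.14% of all genes, and 4 had an unadjusted p under 0.05, or 36.4% against 12.6%. Tmem97 was 0.55 ± 0.18 there (adjusted p = 0.19). Of 13 genes of cholesterol uptake, transport and storage, 2 rose in controls and 1 in knockouts. The share in controls, 15.4%, is near the 11.5% of all genes called there. In knockouts the share, from 1 gene, was 7.69%, against 1.14%. The lysosomal lipase Lipa, which frees cholesterol from its esters, rose by 0.49 ± 0.09 in controls (adjusted p = 0.0090), and the lysosomal carrier Npc2 by 0.27 ± 0.07 (adjusted p = 0.036). Stard5, a sterol carrier, rose in knockouts by 0.60 ± 0.12 (adjusted p = 0.039) and was 0.19 ± 0.12 in controls, with an interaction of 0.41 that did not pass (adjusted p = 0.60).

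The isoprenoid branch leaves the pathway at farnesyl diphosphate. Of its 12 measured genes 0 rose and 1 fell in control hypoxia, or 8.33% called against 11.5% of all genes, with a median of -0.14, and the gene that fell was Ggps1, the synthase of geranylgeranyl diphosphate, by 0.62 on the log2 scale (adjusted p = 0.046). In knockouts Ggps1 was -0.35 ± 0.18 (adjusted p = 0.45). Of 7 genes of SREBP processing and sterol-triggered degradation 0 passed in controls, against 11.5% of all genes, and 3 had an unadjusted p under 0.05, or 42.9% against 27.4%. Over both genotypes Mbtps1, the protease that makes the first cut in SREBP, rose by 0.22 (adjusted p = 0.032) while Pgrmc1 and Rnf139 fell by 0.30 and 0.21 (adjusted p = 0.021 and 0.048). These were 42.9% of the 7 genes, where 14.7% of all genes were called, 7.27% higher and 7.4% lower. Of 6 oxysterol enzymes 1 rose in controls, Hsd3b7 of bile acid synthesis by 0.35 (adjusted p = 0.040), or 16.7% against 11.5% of all genes. Of 4 LXR partners and further targets 0 passed in any comparison, with 0 at an unadjusted p under 0.05 in control hypoxia.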

How the data were processed

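Whole-lung RNA was measured on 12 Affymetrix arrays, 3 in each of 4 groups. The authors deposited log2 values made with RMA, per the submitters' processing notes. The sources used here give no version or filter. All 12 arrays share 1 distribution of values, so a shift in total RNA would not show.

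Of 25428 probe sets, 24705 had 1 gene symbol, 723 had none and 0 had several in the platform annotation. Keeping the brightest probe set of each symbol gave 24704 genes, with no filter on dim ones. limma 3.58.1 in R 4.3.3 fitted 4 group means (8 residual and 3.61 prior degrees of freedom, eBayes, tested on simulated data). There were 6 two-sided contrasts, and p-values were adjusted by Benjamini-Hochberg over all genes of each contrast, with calls at an adjusted p under 0.05. Errors are limma's standard errors.

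The design text counts 4 mice per group, and 3 arrays per group were analysed, taken as separate mice, which the labels do not state, so p-values measure only the spread between these samples. The members, lists, covariates and motifs were chosen with earlier results of these data known. All members may be named, and from each other list at most 4 genes with the smallest adjusted p over both genotypes. Nfat5 and markers may be named with their levels. Srebf1 and Elovl6 fall outside this rule. Alternatives covered the fit, dim genes, covariates, the block and each array left out. Arrays give no depth, so their number limits the precision.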

Additional observations from a re-analysis of the deposited data

How the results depend on the processing

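Hypoxia in control gave 13 members called higher, and 9 other settings and 12 fits that each left out 1 array were tried. The count was 5 with only the arrays of the groups compared, 0 with the nuclear RNA covariate, 7 with the Y-linked covariate, and from 5 to 13 with 1 array left out. The shares of all genes called were 4.45%, 0.0081%, 7.26% and from 3.27% to 15.9%, in that order. Over both genotypes it was 13, then 0 with the nuclear RNA covariate and from 10 to 14 with 1 array left out. Of all genes 14.7%, 0.263% and from 9.12% to 17.9% were called there. The change of Tm7sf2 in controls turned to -0.04 with the nuclear RNA covariate. The 0 calls for hypoxia in knockouts, for knockout against control and for the interaction stayed at 0 in every setting run. Fits of only the arrays compared were not run for the averaged contrast and the interaction, which use all 12. Replicate numbers were not taken as pairs: same-numbered deviations had r from -0.094 to 0.177 for hypoxia in control, -0.248 and 0.0293 in knockout, 0.0861 to 0.277 for knockout in normoxia and 0.0104 and 0.0836 in hypoxia, and not every array matched its own number best. Arrays 2 and 4 did for knockout in normoxia, array 1 for hypoxia in control and array 4 for hypoxia in knockout. With the replicate block 11 members were called in controls and 11 over both genotypes, where 8.33% and 10.8% of all genes were. With the dimmer genes left out (mean under 5), 12 and 15 were called, where 26.4% and 32.3% of all genes were, and Fdps and Idi1 were not tested. The median change in controls went from 0.40 to 0.27 with the nuclear RNA covariate and 0.32 without control hypoxia 2.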
